A study of Homo sapiens with 6 samples.

Results

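Antisense long noncoding RNAs are transcripts that are read from the strand opposite a protein-coding gene. Many are capped, spliced and polyadenylated like messenger RNAs but encode no recognised protein. Those whose start lies close to the start of the coding gene often share a bidirectional promoter with it, and others run across its body or its 3′ end. Some act in cis on the neighbouring gene and some in trans, and for most no function is known.

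Antisense RNAs were examined in SW480 cells, a human line established from a colorectal adenocarcinoma. Of 58735 genes in the expression table, 5583 are annotated as antisense. Of these, 3549 had a value above 0 in at least 1 library and 237 had a mean of at least 2 FPKM (fragments per kilobase of exon, scaled to library size) over the 6 libraries. These 237 genes are the antisense RNAs described here. They were selected on their mean level over both groups together, not on the difference between the groups, so their level is a property of the choice. An RNA near the threshold can still pass through the group where it is higher. Host genes of small nucleolar RNAs were left out by name, which removed 4 antisense genes.

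The libraries were made from SW480 cells transfected with an siRNA against ITGB4 (si_ITGB4, n = 3) or with a negative control siRNA (si_NC, n = 3). ITGB4 encodes integrin beta 4, a subunit of the laminin receptor of hemidesmosomes. The study describes the 3 samples of a group as biological replicates, and all cells carry the genotype label WT. RNA with a poly(A) tail was captured on poly-T beads, so antisense RNAs without one were not measured. The siRNA sequences, the time after transfection and whether the libraries kept strand are not given in the sources used here, and only 1 siRNA against ITGB4 is named. Without strand, reads from bases where 2 genes overlap on opposite strands cannot be told apart.

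The annotation was checked by coordinates. Of the 237 antisense RNAs, 203 overlapped a protein-coding gene on the opposite strand by at least 1 base. Of the other 34, 6 overlapped another kind of gene on the opposite strand and 28 overlapped no opposite-strand gene, so for these the antisense name was not borne out by the coordinates of the table. The coding gene with the longest overlap was taken as the partner of each antisense RNA, and 34 antisense RNAs overlapped 2 or more coding genes. In 100 the antisense gene lay inside the coding gene, in 56 the genes met head to head, in 38 tail to tail, and in 9 the coding gene lay inside the antisense gene. Exon bases of the 2 strands coincided in 126 antisense RNAs. In 8 of these the shared bases made up over 50% of the antisense exons.

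Of the 237, 94 could be matched to a RefSeq promoter window, which runs from 250 bases before to 50 bases after a transcript start in the build GRCh38.p14. In 59 of the 94 the RefSeq start lay within 100 bases of the start in the table, and in the others it lay farther away, up to 46328 bases for HOXB-AS3, so the windows describe RefSeq starts and not always the start of the measured gene. In 25 the window shared bases with a window of an overlapping coding gene on the other strand. Of these 25, 4 are shown because their coding partners, or the antisense RNAs themselves, are described in the comparisons that follow. Each line is the antisense strand, 5′ to 3′, and capitals mark the bases that also lie in the coding gene's window. The window of WNT5A-AS1 is chr3:55487368-55487667 (+) and shares 189 bases with a window of WNT5A. That of ID2-AS1 is chr2:8681814-8682113 (-) and shares 292 bases with ID2. That of AC119427.1, listed in RefSeq as LOC101929343, is chr1:201399241-201399540 (+) and shares 266 bases with LAD1. That of HOXA11-AS is chr7:27185158-27185457 (+) and shares 275 bases with HOXA11.
WNT5A-AS1: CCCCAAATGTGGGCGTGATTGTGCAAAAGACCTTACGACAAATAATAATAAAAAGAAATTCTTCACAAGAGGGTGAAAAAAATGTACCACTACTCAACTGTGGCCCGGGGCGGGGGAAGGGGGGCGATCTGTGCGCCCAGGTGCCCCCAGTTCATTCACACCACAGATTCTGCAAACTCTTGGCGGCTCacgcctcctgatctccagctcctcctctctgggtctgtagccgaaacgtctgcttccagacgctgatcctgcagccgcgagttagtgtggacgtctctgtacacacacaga
ID2-AS1: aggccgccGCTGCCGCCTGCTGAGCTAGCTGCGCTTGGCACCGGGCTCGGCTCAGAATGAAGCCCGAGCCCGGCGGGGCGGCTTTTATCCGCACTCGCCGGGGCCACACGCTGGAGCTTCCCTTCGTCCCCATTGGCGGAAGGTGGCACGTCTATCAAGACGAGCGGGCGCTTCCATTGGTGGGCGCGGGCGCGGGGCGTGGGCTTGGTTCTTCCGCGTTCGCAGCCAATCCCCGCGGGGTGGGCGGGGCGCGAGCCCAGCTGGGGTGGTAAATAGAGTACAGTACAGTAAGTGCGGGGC
AC119427.1: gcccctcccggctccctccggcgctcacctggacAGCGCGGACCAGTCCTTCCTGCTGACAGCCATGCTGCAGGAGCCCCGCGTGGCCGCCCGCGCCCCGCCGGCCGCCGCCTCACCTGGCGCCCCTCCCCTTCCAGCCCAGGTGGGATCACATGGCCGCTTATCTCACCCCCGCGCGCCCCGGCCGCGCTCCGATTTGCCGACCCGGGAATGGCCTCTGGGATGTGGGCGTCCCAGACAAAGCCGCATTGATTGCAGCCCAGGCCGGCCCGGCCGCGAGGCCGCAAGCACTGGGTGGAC
HOXA11-AS: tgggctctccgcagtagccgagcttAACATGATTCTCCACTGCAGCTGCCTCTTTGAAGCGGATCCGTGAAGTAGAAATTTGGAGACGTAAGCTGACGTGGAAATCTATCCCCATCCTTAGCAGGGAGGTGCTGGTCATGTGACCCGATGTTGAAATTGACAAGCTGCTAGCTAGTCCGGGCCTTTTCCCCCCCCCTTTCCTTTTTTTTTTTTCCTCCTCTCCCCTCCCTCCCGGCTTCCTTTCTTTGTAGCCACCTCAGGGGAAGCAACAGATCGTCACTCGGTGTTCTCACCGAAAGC

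In RefSeq the antisense and coding transcripts of these 4 windows start back to back and run away from each other, whereas the gene extents of the table overlap in all 4, with WNT5A-AS1 inside WNT5A. The RefSeq start used for the antisense RNA lies 81 bases from the start in the table for WNT5A-AS1, 0 for ID2-AS1, 142 for AC119427.1 and 901 for HOXA11-AS. The coding window used was the one that shares the most bases, so its start need not be the coding gene's start in the table. The 2 RefSeq starts lie 312 bases apart for WNT5A-AS1, 193 for ID2-AS1, 167 for AC119427.1 and 176 for HOXA11-AS. The GC content of the windows was 53.3%, 69.0%, 74.0% and 52.7% in the same order. Over the 25 shared windows the median GC content was 69.0%, against 64.3% over all 94 matched antisense windows and 58.3% over 27305 RefSeq genes. The ratio of observed to expected CpG had medians of 0.829, 0.695 and 0.580 in those 3 sets. The Sp1 core GGGCGG, searched on both strands, was present in 76.0% of the shared windows, 57.4% of the antisense windows and 44.6% of RefSeq windows. Of the 4 windows shown it was in those of WNT5A-AS1, ID2-AS1 and AC119427.1. The TATA box core TATAAA was in 0 of the shared windows, 8.51% of the antisense windows and 12.0% of RefSeq windows, and in none of the 4 shown. CCAAT was in 36.0%, 29.8% and 35.7%. Over the 12 shared windows within 100 bases of the start in the table, the median GC content was 65.8%, and GGGCGG was in 91.7%, TATAAA in 0 and CCAAT in 58.3%. Over all 59 antisense windows within that distance these values were 63.3%, 62.7%, 8.47% and 32.2%. These are letters found in a window, not binding sites. The RefSeq set holds a window per gene whatever its level, while the antisense windows belong to genes of at least 2 FPKM. The sets were thus not matched for expression, and a trait particular to antisense RNAs was not tested.

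The libraries held 13715266 to 15496274 reads, recovered from the FPKM values. The siRNA target was lower in every si_ITGB4 library, with 41.1, 38.1 and 37.9 FPKM of ITGB4 in si_ITGB4 cells against 74.3, 63.8 and 69.8 FPKM in si_NC cells. On the log2 scale it fell by 0.81 ± 0.0658 (SE), with an adjusted p of 0.0148 in limma. This call was lost with no filter on low genes (adjusted p = 0.0618) and with the replicate number as a block (0.0564). It was also lost without any 1 of the si_ITGB4 libraries (0.0709 to 0.137) and without si_NC replicate 3 (0.0996), all in limma. ITGB4 stayed lower each time. In limma-voom on the recovered reads of all 6 libraries, its adjusted p was 1.31e-05. Of 7 colon epithelium markers 6 reached 1 FPKM and VIL1 did not, and their summed FPKM was 1523 to 1564 in si_ITGB4 and 1471 to 1649 in si_NC libraries. Markers of other cell types were near 0. Of 6 fibroblast markers only FBLN1 reached 1 FPKM and 3 were listed at 0, with sums of 1.54 to 1.72 in si_ITGB4 and 1.52 to 2.24 in si_NC libraries. Of 5 endothelial markers only ESAM did and 2 were at 0, with sums of 0.889 to 1.25 in si_ITGB4 and 1.12 to 1.32 in si_NC libraries. Of 5 leukocyte markers only CD74 did, with sums of 2.82 to 3.41 in si_ITGB4 and 3.0 to 3.41 in si_NC libraries.

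The summed level of the antisense RNAs differed between the groups by less than the spread between replicates. It was 1208, 1195 and 1200 FPKM in the si_ITGB4 libraries and 1221, 1179 and 1218 FPKM in the si_NC libraries. The means were 1201 ± 6.62 FPKM in si_ITGB4 and 1206 ± 23.1 FPKM in si_NC cells (SD, n = 3 each), and the 2 sets of values overlap. Together the 237 genes took 0.187% to 0.193% of the reads of a library. They are 865 bases long in the median, from 182 to 17179 bases of exon, and a gene was covered by a median of 54.3 reads per library, from 8.17 to 2253. In 38 (16%) the exon length equals the genomic span, as for a transcript with no intron, against 12.7% of all antisense genes in the table.

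Most of the antisense RNAs were present at low levels. Of the 237, 97 were under 3 FPKM, 59 reached 5 FPKM and 19 reached 10 FPKM, and the median of the means was 3.44 FPKM against 6.24 FPKM for all 12871 genes with a mean of at least 1 FPKM. The 10 most abundant made up 24.8% of the summed FPKM. At the threshold, AC098864.1, AP000254.1 and AC008735.4 were just inside with means of 2.0, 2.01 and 2.02 FPKM. AC132192.2, AL050341.2 and ADNP-AS1 were just outside with 1.98, 1.96 and 1.96 FPKM. In 27 of the 237 one group's mean was under 2 FPKM, so these passed through the other group. Among those described below as parting the groups, AC119427.1, PAN3-AS1, AC046143.1 and AC098864.1 had si_NC means of 1.56, 1.94, 1.90 and 1.78 FPKM. AC137630.3 and RUSC1-AS1 had si_ITGB4 means of 1.62 and 1.91 FPKM. For such RNAs the difference between the groups is not independent of the threshold.

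**Figure D1:**
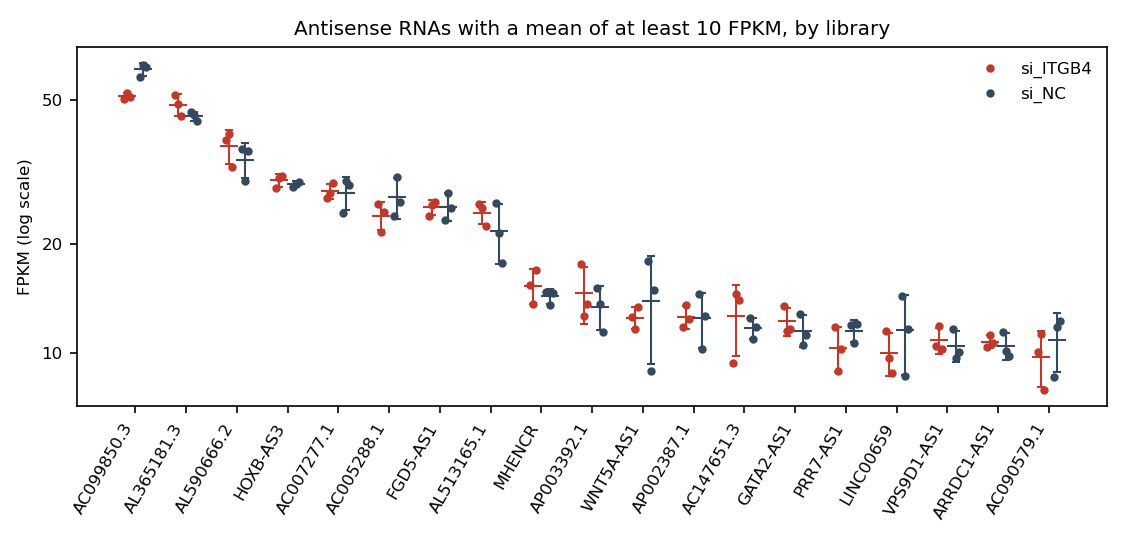
FPKM on a log axis of the 19 antisense RNAs with a mean of at least 10 FPKM, by library, with the group mean and SD (n = 3) as bars, si_ITGB4 to the left of si_NC for each gene. In AC099850.3 the 3 si_ITGB4 libraries lie below the 3 si_NC libraries, as in 5.36% of all genes tested, and in the other 18 the groups overlap.

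The most abundant antisense RNA was AC099850.3, today named PRR11-AS1, a transcript of 321 bases at chr17:59202677-59203829 (GRCh38) inside PRR11, a gene of cell cycle progression. It had 50.4, 52.4 and 51.0 FPKM in si_ITGB4 cells and 58.1, 62.6 and 61.7 FPKM in si_NC cells. Every si_ITGB4 library was below every si_NC library, and the log2 fold change of -0.24 ± 0.0448 (SE) did not pass the adjusted test (limma, adjusted p = 0.296). PRR11 itself had 30.4, 31.1 and 28.8 FPKM in si_ITGB4 and 28.9, 32.0 and 29.5 FPKM in si_NC cells, with the groups overlapping and a log2 fold change of -0.00089. The 2 genes share 97 exon bases, 30.2% of the exon of AC099850.3.

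Next in level were 2 RNAs of the BCAN locus on chromosome 1. AL365181.3 had 51.8, 48.9 and 45.2 FPKM in si_ITGB4 and 46.4, 45.4 and 43.8 FPKM in si_NC cells. AL590666.2, today BCAN-AS2, had 38.8, 40.4 and 32.7 FPKM in si_ITGB4 and 36.6, 29.9 and 36.2 FPKM in si_NC cells. In both RNAs the groups overlap. Both lie above BCAN, the gene of the brain matrix proteoglycan brevican, which had 4.71, 4.49 and 5.18 FPKM in si_ITGB4 and 3.92, 4.12 and 4.94 FPKM in si_NC cells. AC007277.1, the fifth by level, averaged 28.0 ± 1.36 FPKM in si_ITGB4 and 27.7 ± 2.96 FPKM in si_NC cells (SD, n = 3 each), while its partner MYO3B, a class III myosin, stayed under 1 FPKM in all 6 libraries.

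Among the 19 RNAs at 10 FPKM or more, AC099850.3 was the only one whose groups did not overlap, and log2 fold changes ran from -0.24 to 0.18. Of all genes tested, 5.75% had the si_ITGB4 libraries all above and 5.36% all below, so 1 in 19 is not above the usual share. FGD5-AS1 averaged 25.2 ± 1.17 FPKM in si_ITGB4 and 25.4 ± 2.24 FPKM in si_NC cells. AC005288.1, tail to tail with MED1, a Mediator subunit, averaged 24.0 ± 2.14 FPKM in si_ITGB4 and 26.9 ± 3.45 FPKM in si_NC cells. VPS9D1-AS1, also called MYU and known from colon cancer as a target of MYC, averaged 10.8 ± 0.881 FPKM in si_ITGB4 and 10.5 ± 1.05 FPKM in si_NC cells. GATA2-AS1, head to head with the transcription factor gene GATA2, averaged 12.2 ± 1.10 FPKM in si_ITGB4 and 11.5 ± 1.18 FPKM in si_NC cells (SD, n = 3 each throughout). None of these 4 differed beyond the spread between replicates.

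The HOX clusters hold the homeobox genes of body axis patterning, and 8 of the 237 antisense RNAs were assigned to them by name. Coordinates were not used for this count, so an RNA of these clusters under a clone name would be missed. HOXB-AS3, reported in colon cancer to encode a small peptide, had 28.6, 30.5 and 30.8 FPKM in si_ITGB4 and 28.7, 29.4 and 29.8 FPKM in si_NC cells. HOTAIR, an RNA of the HOXC cluster linked to Polycomb repression in trans, had 5.55, 6.39 and 5.73 FPKM in si_ITGB4 and 6.73, 6.04 and 5.60 FPKM in si_NC cells. The groups overlap in both. HOTAIRM1 averaged 4.16 ± 0.134 FPKM in si_ITGB4 and 4.34 ± 0.436 FPKM in si_NC cells. HAGLR, of the HOXD cluster, averaged 3.18 ± 0.237 FPKM in si_ITGB4 and 3.44 ± 0.136 FPKM in si_NC cells, and HOXA11-AS averaged 2.23 ± 0.463 and 2.15 ± 0.405 FPKM in the same order (SD, n = 3 each). HOXB-AS4 averaged 8.08 ± 0.766 FPKM in si_ITGB4 and 7.74 ± 1.60 FPKM in si_NC cells, HOXB-AS2 5.70 ± 0.178 and 5.59 ± 0.599 FPKM, and HOXC-AS1 3.23 ± 1.43 and 3.09 ± 0.295 FPKM, likewise in that order. In 0 of the 8 did the groups part, 0 were at an unadjusted p under 0.05, and log2 fold changes ran from -0.09 to 0.07. HOXB-AS3 exceeded its partner HOXB3, which averaged 13.1 ± 0.798 FPKM in si_ITGB4 and 13.3 ± 0.525 FPKM in si_NC cells. HAGLR was measured beside a partner, HOXD3, with at most 3 reads in any library.

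Other widely studied antisense RNAs were among the 237 as well. DLEU2, the host transcript of a microRNA cluster lost in chronic lymphocytic leukaemia, had 3.55, 4.14 and 3.93 FPKM in si_ITGB4 and 3.55, 4.71 and 4.29 FPKM in si_NC cells. GABPB1-AS1, whose 17179 exon bases make it the longest of the 237, had 3.65, 3.87 and 4.25 FPKM in si_ITGB4 and 3.66, 4.41 and 3.76 FPKM in si_NC cells. PSMA3-AS1, tail to tail with the proteasome subunit gene PSMA3, had 4.14, 3.86 and 4.75 FPKM in si_ITGB4 and 3.69, 4.96 and 4.49 FPKM in si_NC cells. The groups overlap in all 3. ASMTL-AS1, THAP9-AS1, MAFG-DT and SPRY4-AS1 had log2 fold changes of 0.04, 0.03, 0.07 and 0.18, and their groups overlap as well.

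No difference in a single antisense RNA passed the adjusted test. The test was fitted over all 12871 genes with a mean of at least 1 FPKM (limma-trend on log2 of FPKM + 1), and all 237 antisense RNAs were among them. At an adjusted p under 0.05 it called 0 of 237 antisense RNAs, where 0.0466% of all genes tested were called. At an unadjusted p under 0.05 there were 24 antisense RNAs (10.1%) against 5.83% of all genes. Of these, 12 were higher (5.06%, against 2.91% of all genes) and 12 lower (5.06%, against 2.92%). With limma-voom on the recovered reads, 0 antisense RNAs were called, against 0.202% of all genes, and 12 (5.06%) were at an unadjusted p under 0.05, against 5.82%. The share of low p-values was thus above that of all genes on the FPKM scale and below it on the read scale, and 9 RNAs were in both sets. The si_ITGB4 libraries were all above the si_NC libraries in 15 antisense RNAs (6.33%, against 5.75% of all genes) and all below in 11 (4.64%, against 5.36%). Both shares are near those of all genes, and some of these RNAs passed 2 FPKM only through the group where they are higher. The median log2 fold change was 0.01, against -0.0034 over all genes tested, with 128 antisense RNAs above 0 and 109 below.

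How small a difference could be seen depended on the reads behind a gene. The 95% interval of the log2 fold change had a median half-width of 0.424 in the 114 antisense RNAs under 50 reads per library. It was 0.260 in the 88 with 50 to under 200 reads and 0.196 in the 35 with 200 or more. For 170 of the 237 the whole interval lay within a 1.5-fold change in either direction, among them all 35 in the highest read class. In the other 67 a change of 1.5-fold or more was within the interval. These intervals are on the log2(FPKM + 1) scale, which understates the changes of low genes. On that scale 1 antisense RNA, AC119427.1, had a fitted change of at least 1.5-fold, against 1.38% of all genes. With limma-voom on reads there were 10 (4.22%), against 2.87% of all genes, none of them called.

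**Figure D2:**
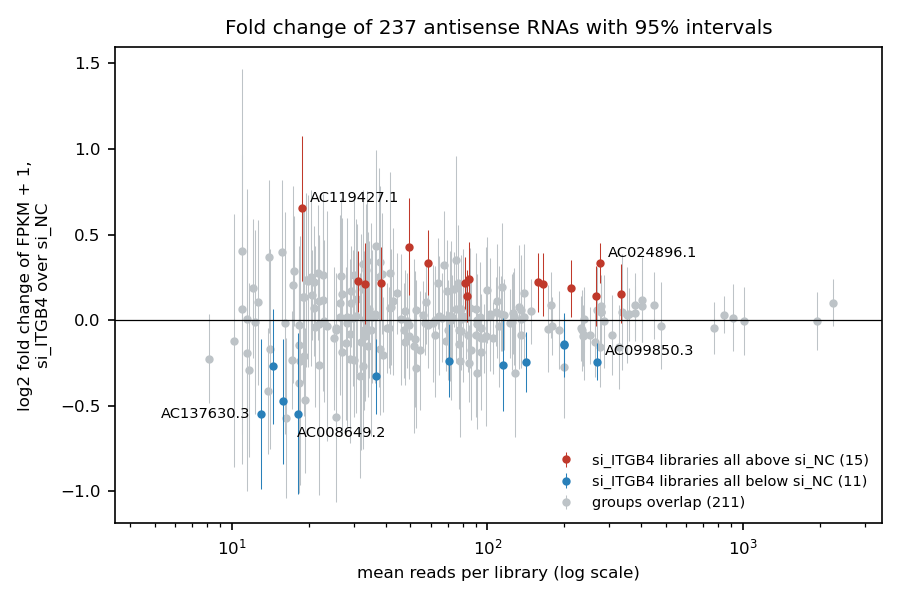
Log2 fold change (FPKM + 1, si_ITGB4 over si_NC) of the 237 antisense RNAs against their mean reads per library on a log axis, with 95% intervals from limma, coloured by whether the 3 si_ITGB4 libraries were all above (15), all below (11) or overlapping (211) the 3 si_NC libraries. Intervals narrow as reads increase, and AC024896.1 and AC099850.3 are those with over 200 reads that lie farthest from 0.

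The antisense RNA with the smallest p was AC024896.1, at chr12:26971586-26979582 (GRCh38), tail to tail with TM7SF3, which encodes a membrane protein with several transmembrane segments. It had 7.99, 8.27 and 8.29 FPKM in si_ITGB4 cells and 6.26, 6.09 and 6.51 FPKM in si_NC cells, on 282, 322 and 329 against 236, 230 and 253 reads. The groups do not overlap, and the log2 fold change was 0.33 ± 0.0503 (SE). The adjusted p was 0.148 in limma-trend and 0.199 in limma-voom. TM7SF3 had 46.0, 46.4 and 45.1 FPKM in si_ITGB4 and 42.7, 46.8 and 44.5 FPKM in si_NC cells, which overlap.

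Several others in which all si_ITGB4 libraries were above all si_NC libraries rested on fewer reads. AC119427.1, head to head with LAD1, had 2.73, 3.53 and 2.66 FPKM in si_ITGB4 and 1.58, 0.971 and 2.12 FPKM in si_NC cells, on 21, 30 and 23 against 13, 8 and 18 reads. Its log2 fold change was 0.65, with a 95% interval of 0.23 to 1.08 (limma, adjusted p = 0.613), and it ran from 0.48 to 0.81 without any 1 library. PAN3-AS1, which overlaps no opposite-strand coding gene, had 2.89, 2.62 and 3.37 FPKM in si_ITGB4 and 1.55, 2.05 and 2.23 FPKM in si_NC cells. AC139887.2, today PCGF3-AS1, had 3.16, 2.83 and 2.73 FPKM in si_ITGB4 and 1.97, 2.27 and 2.04 FPKM in si_NC cells. PCGF3, its partner and a Polycomb group gene, averaged 6.49 ± 0.222 FPKM in si_ITGB4 and 6.72 ± 0.236 FPKM in si_NC cells. The further RNAs of this kind with the smallest p were AC004148.2, ASB16-AS1, AC046143.1 (today TMEM44-AS2) and AC098864.1 (today TENM3-AS1). They were 0.21 to 0.23 higher on the log2 scale, and their adjusted p-values in limma were 0.682 to 0.812.

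Several of those in which all si_ITGB4 libraries were below all si_NC libraries also rested on few reads. AC137630.3, head to head with IMPDH2, a rate-limiting enzyme of guanine nucleotide synthesis, had 2.03, 1.17 and 1.64 FPKM in si_ITGB4 and 2.77, 2.07 and 3.69 FPKM in si_NC cells. These values rest on 7 to 11 reads in si_ITGB4 and 12 to 22 reads in si_NC libraries. AC003965.2, beside the serine protease gene PRSS22, had 4.63, 3.71 and 2.42 FPKM in si_ITGB4 and 4.85, 5.09 and 6.93 FPKM in si_NC cells. AC116914.2, inside the gene of integrin alpha E, ITGAE, had 2.98, 2.70 and 2.87 FPKM in si_ITGB4 and 4.41, 3.25 and 5.64 FPKM in si_NC cells. Their log2 fold changes were -0.55, -0.55 and -0.47, with limma adjusted p-values of 0.768, 0.806 and 0.746. Leaving out 1 library at a time, the log2 fold change ran from -0.70 to -0.39 for AC137630.3, from -0.71 to -0.35 for AC003965.2 and from -0.64 to -0.32 for AC116914.2. The value nearest 0 came without si_ITGB4 replicate 3 for AC003965.2 and without si_NC replicate 3 for the other 2. AC008060.2, AC003958.2, AC012073.1 and RUSC1-AS1, with AC099850.3 the others of the 8 with the smallest p, were at -0.33, -0.24, -0.24 and -0.26 (log2). Of the 24 antisense RNAs with an unadjusted p under 0.05, 7 averaged under 20 reads per library, as did 34 of all 237.

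Antisense RNAs were set beside their coding genes in level. Of the 203 with a partner, 70 were above it in mean FPKM and 133 below, with a median ratio of antisense to coding FPKM of 0.439. Across the 200 pairs whose coding gene had any read, Spearman's rho of the levels was 0.05. This is a description over genes that share libraries and depth, and only antisense RNAs past 2 FPKM enter. In 30 pairs the coding gene averaged under 1 FPKM. The antisense RNA exceeded the coding gene more than 10 times in 16 pairs and lay more than 10 times below it in 27.

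**Figure D3:**
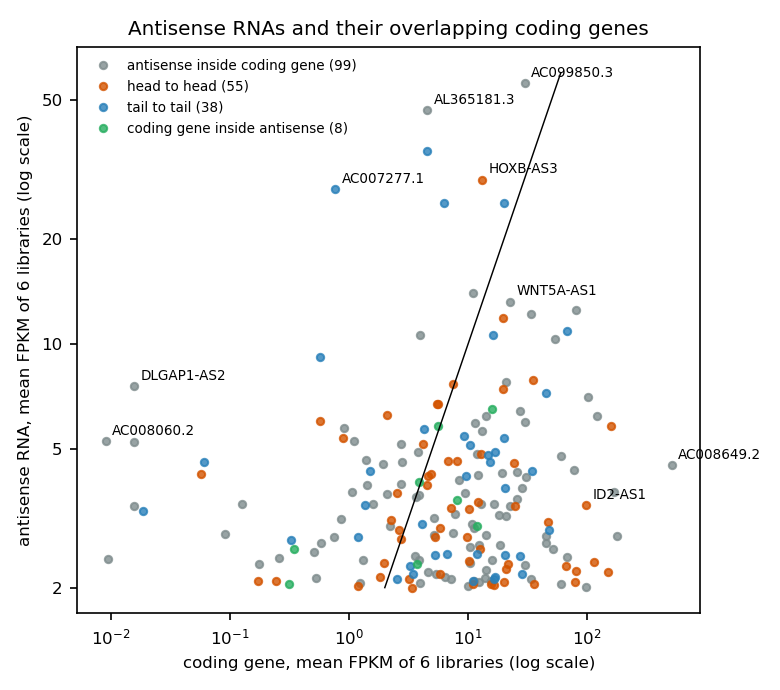
Mean FPKM over the 6 libraries of each antisense RNA (vertical) against that of its overlapping coding gene (horizontal), both on log axes, coloured by the arrangement of the 2 genes, with a line at equal levels. The 200 pairs whose coding gene had any read are drawn, and at a given level of the antisense RNA the coding gene ranges widely, from 0.00908 to 513 FPKM in all.

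At the DLGAP1 locus on chromosome 18, 3 antisense RNAs were measured over a coding gene with almost no reads. DLGAP1, which encodes a scaffold protein of the postsynaptic density, averaged 0.0129 FPKM in si_ITGB4 and 0.0185 FPKM in si_NC cells. Over the same locus DLGAP1-AS2 averaged 7.67 ± 0.442 FPKM in si_ITGB4 and 7.47 ± 0.480 FPKM in si_NC cells. AP002478.1 averaged 5.67 ± 1.2 FPKM in si_ITGB4 and 4.79 ± 0.792 FPKM in si_NC cells, and DLGAP1-AS1 averaged 3.51 ± 0.236 and 3.37 ± 0.373 FPKM in the same order (SD, n = 3 each). AC008060.2 lay inside CNPY1, which was listed at 0 in all libraries but si_NC replicate 3, where it had 3 reads. At the other end, AC008649.2 lay inside ACTN4, the gene of the actin crosslinker alpha-actinin 4. It averaged 4.50 FPKM over the 6 libraries, against 513 FPKM for ACTN4.

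The coding partners were compared in the same fit. The 237 antisense RNAs overlapped 234 distinct coding genes, of which 192 had a mean of at least 1 FPKM and were tested. Limma called 0 of them at an adjusted p under 0.05, with 8 (4.17%, against 5.83% of all genes) at an unadjusted p below the same value. Limma-voom also called 0, with 10 at an unadjusted p below it, where the share over all genes was 5.82%. The si_ITGB4 libraries were all above si_NC in 12 (6.25%, against 5.75% of all genes) and all below in 11 (5.73%, against 5.36%). None of the 24 antisense RNAs with an unadjusted p under 0.05 had a partner that was also under it, and 2 of them had no partner. A partner under 1 FPKM, such as CNPY1 of AC008060.2, was not tested and could not be under it. Since only 4.17% of the tested partners were under it at all, a count of 0 says little about the pairs.

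The coding partners with the smallest p were 2 regulators with a RefSeq window that shares bases with an antisense window shown above. ID2 encodes a helix-loop-helix protein that blocks the DNA binding of basic helix-loop-helix factors. It had 88.1, 89.6 and 93.7 FPKM in si_ITGB4 and 104, 112 and 104 FPKM in si_NC cells. All si_ITGB4 libraries were lower, with a fold change of -0.24 ± 0.0468 on the log2 scale (SE), and the adjusted p was 0.368 (limma). ID2-AS1 had 3.71, 3.15 and 2.99 FPKM in si_ITGB4 and 3.84, 3.70 and 3.28 FPKM in si_NC cells, where the groups overlap, and a log2 fold change of -0.11. The ratio of ID2-AS1 to ID2 differed by 0.13 (log2, 95% interval -0.17 to 0.43), which does not part the 2 changes.

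WNT5A encodes a Wnt ligand that mostly signals without beta-catenin. It had 20.3, 20.8 and 21.8 FPKM in si_ITGB4 and 24.1, 25.1 and 24.1 FPKM in si_NC cells. These do not overlap, with a fold change of -0.21 ± 0.0464 on the log2 scale (SE), and the adjusted p was 0.462 (limma). WNT5A-AS1 had 12.6, 11.7 and 13.4 FPKM in si_ITGB4 and 18.0, 8.91 and 15 FPKM in si_NC cells. The si_NC values of WNT5A-AS1 spread over a range that holds all 3 si_ITGB4 values, and its log2 fold change of -0.09 has a 95% interval of -0.62 to 0.43. The ratio of WNT5A-AS1 to WNT5A differed by 0.12 (log2, 95% interval -0.42 to 0.65).

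In 5 of the 173 pairs with both genes tested (2.89%) the antisense RNA and its partner both parted the groups, in 4 of them in the same direction. These 173 hold 1 partner per antisense RNA. The table has 418 antisense and coding pairs with both genes tested, counting every partner and any antisense level from 1 FPKM up. Among these 418 there were 8 (1.91%), in 6 of them in the same direction. The 2 sets of pairs are thus unlike, and the difference between these shares was not tested. Among the 5, the 4 were THUMPD3-AS1, RASSF8-AS1, AC119427.1 and AC098864.1, and in the remaining pair AC004148.2 was above si_NC in every si_ITGB4 library and its partner RPAIN below it. THUMPD3, which encodes a tRNA methyltransferase, had 8.38, 8.97 and 8.39 FPKM in si_ITGB4 and 7.27, 7.84 and 7.45 FPKM in si_NC cells. THUMPD3-AS1 had 3.54, 3.78 and 4.12 FPKM in si_ITGB4 and 3.10, 3.46 and 3.40 FPKM in si_NC cells. These 2 genes share 660 exon bases. If the libraries did not keep strand, which is not given, reads from those bases cannot be told apart. RASSF8, a Ras association domain gene, had 9.42, 9.66 and 9.31 FPKM in si_ITGB4 and 9.95, 11.9 and 10.9 FPKM in si_NC cells, and RASSF8-AS1 had 3.25, 2.89 and 3.31 FPKM in si_ITGB4 and 3.5, 3.64 and 3.54 FPKM in si_NC cells. They share 37 exon bases. Limma adjusted p-values were 0.741 for THUMPD3, 0.920 for THUMPD3-AS1, 0.813 for RASSF8 and 0.928 for RASSF8-AS1.

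**Figure D4:**
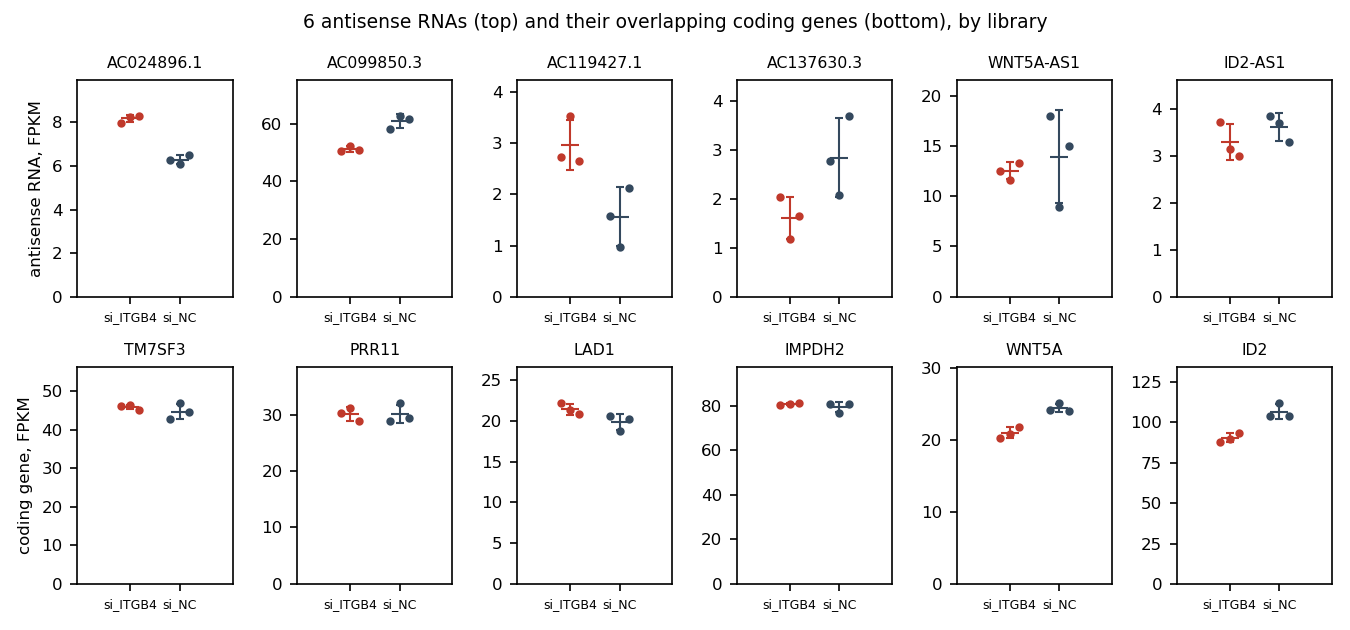
FPKM by library of 6 antisense RNAs (top row) and their overlapping coding genes (bottom row), with the group mean and SD (n = 3) as bars and every axis starting at 0. In AC024896.1, AC099850.3, AC119427.1 and AC137630.3 the antisense RNA parts the groups, and in WNT5A-AS1 and ID2-AS1 it does not. Of the coding genes LAD1, WNT5A and ID2 do, and TM7SF3, PRR11 and IMPDH2 do not.

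Whether an antisense RNA and its coding gene changed by different amounts was tested as a ratio, over the 418 antisense and coding pairs of the table in which both genes had a mean of at least 1 FPKM. Of these, 199 pairs held an antisense RNA of at least 2 FPKM. Limma called 0 of the 199 at an adjusted p under 0.05, and 0.0% of all 418 pairs. At an unadjusted p under 0.05 there were 9 of the 199, against 4.55% of all pairs, and 9 of the 199 with limma-voom. The share of all pairs with limma-voom is not given here, so that count cannot be set against it. The smallest p belonged to AC137630.3 and IMPDH2, with a log2 difference of -0.57 ± 0.182 (SE), followed by AC119427.1 and LAD1 at 0.55 ± 0.178 (SE). LAD1 encodes ladinin, a protein of the basement membrane zone, and had 22.1, 21.3 and 20.8 FPKM in si_ITGB4 and 20.6, 18.8 and 20.2 FPKM in si_NC cells. AL357033.3 and SLCO4A1, an organic anion transporter gene, came next at -0.49. The adjusted p was 0.858 for each of these pairs (limma).

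Fold changes of antisense RNA and partner showed no visible relation across loci. Over the 173 pairs with both genes tested, 1 partner per antisense RNA, Pearson's r was -0.001 and Spearman's rho -0.04, and 79 had the same sign. All points come from the same 6 libraries, and the values are descriptions. In the 50 head to head pairs r was -0.03 and 18 had the same sign. It was 0.01 in the 33 tail to tail pairs, of which 18 had the same sign, and -0.01 in the 84 with the antisense gene inside the coding gene, of which 40 did. In the 112 pairs with shared exon bases r was -0.04, and in the 61 without it was 0.06. With intervals as wide as those given above, a weak relation would not be detectable at this depth.

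**Figure D5:**
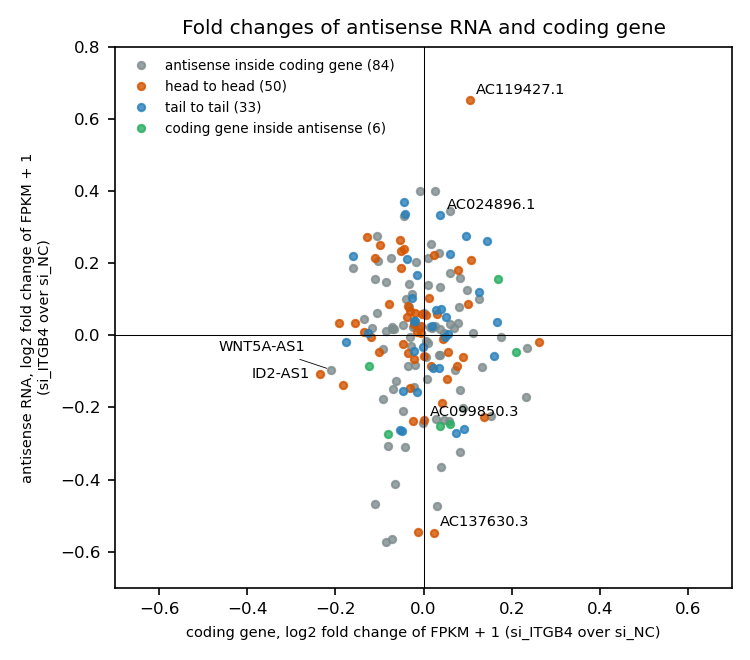
Log2 fold change (FPKM + 1, si_ITGB4 over si_NC) of the antisense RNA (vertical) against that of its overlapping coding gene (horizontal) for the 173 pairs with both genes tested, coloured by arrangement. The coding genes lie between -0.24 and 0.26, the antisense RNAs between -0.57 and 0.65, and the cloud has no visible slope.

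Genes known to terminate or degrade antisense RNAs were read from 3 lists. The nuclear exosome and its adaptors degrade unstable transcripts in the nucleus. Of 19 genes, 7 were above 0 and 12 below, with a median log2 fold change of -0.02. C1D, an exosome cofactor, averaged 5.80 ± 0.127 FPKM in si_ITGB4 and 6.86 ± 1.10 FPKM in si_NC cells, and EXOSC3, a subunit of the exosome core, averaged 18.5 ± 0.236 and 17.8 ± 0.764 FPKM in the same order (SD, n = 3 each). The Integrator complex and the 3′ end factors stop short noncoding transcription. Of 18 genes, 10 were above 0 and 8 below, with a median of 0.01, and INTS12 had the smallest p, being 0.18 higher on the log2 scale (limma, adjusted p = 0.854). Cytoplasmic decay, nonsense-mediated decay included, acts on transcripts after export. Of 11 genes, 5 were above 0 and 6 below, with a median of -0.01, and the exonuclease XRN1 averaged 3.74 ± 0.229 FPKM in si_ITGB4 and 4.03 ± 0.383 FPKM in si_NC cells (SD, n = 3 each). In the 3 lists 0 genes were called by limma or limma-voom, and 0 were at an unadjusted p under 0.05 with either. Over all genes the called shares were 0.0466% and 0.202%, and those at an unadjusted p under 0.05 were 5.83% and 5.82%. Of the 48 genes, EXOSC3, INTS12, INTS3 and UPF3A were above si_NC in every si_ITGB4 library and CSTF2 was below, 4 and 1 genes where 5.75% and 5.36% of all genes did so.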

How the data were processed

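RNA sequencing was read from 1 deposited table of FPKM for 58735 genes in 6 libraries, 3 per group, with groups taken from the sample titles. Per the labels' protocols, the authors made libraries from poly(A) RNA. Per the submitters' processing notes the build is GRCh38, and DESeq2 and edgeR are named without a role. The aligner, counting tool and strandedness are not given in the sources used here. Gene coordinates and exon lengths equalled GENCODE release 29 for all 58735 genes, and that release was used for overlaps. Multiplied by gene length, 100% of values were whole reads at a tolerance of 0.01, so depth per library is known. Since FPKM divides by the union of exons, levels are comparable between genes per length only, and reads from shared exon bases may be counted for either gene.

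Linear models of log2 FPKM with a pseudocount of 1 came from the trend method of limma 3.58.1 (R 4.3.3), with no replicate term, over the 12871 genes with a mean of at least 1 FPKM. Benjamini-Hochberg adjustment ran over all of them and calls were made at an adjusted p under 0.05. The ratio test used the difference of the 2 log2 values over 418 pairs. Tests are two-sided, and intervals are 95% confidence intervals. The fits were run on simulated data with the same added spread for every gene, which checks the code and not the power in these data. Fold changes on this scale understate those of low genes. Overlaps, RefSeq windows and figures were made in Python 3.11.15 with numpy 2.4.6, pandas 2.3.3 and matplotlib 3.10.9. Promoters were matched by current symbol, table symbol or Entrez number. For an antisense RNA the window nearest the start in the table was taken. For coding genes it was the opposite-strand window with the most shared bases, whatever its distance from the start in the table.

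The antisense RNAs and all lists were chosen with earlier results of these data known. Named were the 10 highest antisense RNAs, up to 8 per direction with the smallest p among those whose groups do not overlap, 3 each side of the threshold, a list of widely studied antisense RNAs, the 5 pairs with the smallest ratio p, the 3 highest ratios, and their coding genes. Of each pathway list the 3 smallest p-values were taken. WNT5A-AS1, ID2-AS1, HOTAIR, HOXB-AS4, HOXB-AS2, HOXC-AS1, THUMPD3-AS1, RASSF8-AS1, AC008649.2 and their partners were named after their values were seen. Alternatives changed the pseudocount, filters, scaling, moderation, tool, replicate term, threshold, overlap and libraries.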

Additional observations from a re-analysis of the deposited data

How the results depend on the processing

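Under every alternative run, 0 antisense RNAs of at least 2 FPKM, 0 overlapping coding genes and 0 antisense to coding ratios were called, and the median log2 fold change of the antisense RNAs lay between 0.00042 and 0.023. The smallest adjusted p of an antisense RNA was 0.126 to 0.623 over these alternatives. The number at an unadjusted p under 0.05 was 24 with limma-trend, 12 with limma-voom, 38 without si_NC replicate 1 and 20 to 29 without any other single library. With the replicate number as a block it was 38, and the smallest adjusted p was 0.255. Same-numbered libraries of the 2 groups deviated together with correlations of 0.173, 0.102 and -0.010 for numbers 1, 2 and 3. Between libraries of different numbers the correlations ran from -0.174 to 0.0862. Whether same-numbered libraries shared a day or batch is not given and was not tested. With a threshold of 1 FPKM, 504 antisense RNAs were tested and 42 were at an unadjusted p under 0.05, and with 5 FPKM there were 59 and 4. For coding genes that number was 3 to 22 without 1 library, and for ratios 3 to 15. The number tested changed with the filter. With no filter there were 13 of 228 coding genes, against 8 of 192, and 16 of 237 ratios, against 9 of 199. With a filter at 2 FPKM there were 15 of 182 ratios. Over all genes the share at an unadjusted p under 0.05 was 5.83% with limma-trend and 5.82% with limma-voom. For the other settings that share is not given here, so their counts do not show a change particular to antisense RNAs. The call of ITGB4 was lost with no filter (adjusted p = 0.0618), with the block (0.0564), without any 1 of the si_ITGB4 libraries (0.0709 to 0.137) and without si_NC replicate 3 (0.0996), all in limma. Its log2 fold change was -0.87 to -0.76 throughout the omissions, and its limma-voom adjusted p with all 6 libraries was 1.31e-05.

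Small fold changes turned sign. After rescaling to TPM these were FGD5-AS1 at 0.00018, PRR11 at 0.0039 and PSMA3 at 0.0036 (log2), and with limma-voom FGD5-AS1 at 0.0029, GABPB1-AS1 at 0.0028, PRR11 at 0.0052 and PSMA3 at 0.0057. The cause was not tested. Leaving out 1 library at a time, log2 fold changes of antisense RNAs crossed 0 with these ranges: AC007277.1 -0.073 to 0.068, ADNP-AS1 -0.34 to 0.089, AP003392.1 -0.020 to 0.21, ASMTL-AS1 -0.0083 to 0.11, DLGAP1-AS1 -0.016 to 0.11, DLGAP1-AS2 -0.013 to 0.066, FGD5-AS1 -0.063 to 0.059, GABPB1-AS1 -0.052 to 0.061, HOTAIR -0.10 to 0.013, HOTAIRM1 -0.091 to 0.018, HOXA11-AS -0.080 to 0.11, HOXB-AS2 -0.035 to 0.095, HOXB-AS4 -0.019 to 0.21, HOXC-AS1 -0.20 to 0.31, MAFG-DT -0.067 to 0.20, PSMA3-AS1 -0.13 to 0.045, THAP9-AS1 -0.087 to 0.11, VPS9D1-AS1 -0.014 to 0.12, WNT5A-AS1 -0.37 to 0.10. Those of coding genes were CCDC84 -0.083 to 0.033, FGD5 -0.023 to 0.13, GATA2 -0.092 to 0.065, HOXB3 -0.067 to 0.0093, HOXB7 -0.071 to 0.0018, HOXC9 -0.11 to 0.13, IMPDH2 -0.0016 to 0.036, ITGAE -0.038 to 0.15, KRT37 -0.072 to 0.16, MED1 -0.050 to 0.016, PRR11 -0.029 to 0.042, PRSS22 -0.082 to 0.11, PSMA3 -0.029 to 0.022, SLCO4A1 -0.16 to 0.030, SOD1 -0.022 to 0.060, ZNF865 -0.022 to 0.14. Every other named gene that was tested kept its direction under these alternatives. Depth limits the rest: half-widths of the intervals were widest under 50 reads per library, and intervals cover the spread between these samples, which may be technical in part.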

Other observations

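The 4 antisense genes left out by name host small nucleolar RNAs and were measured in the same fit. ZFAS1 had 21.6, 25.1 and 23.2 FPKM in si_ITGB4 and 20.8, 26.8 and 23.6 FPKM in si_NC cells. SNHG7 had 11.2, 12.2 and 13.2 FPKM in si_ITGB4 and 14.0, 10.6 and 11.7 FPKM in si_NC cells. SNHG10 had 7.5, 8.04 and 8.65 FPKM in si_ITGB4 and 8.48, 7.63 and 6.92 FPKM in si_NC cells. SNHG12 had 3.5, 4.04 and 3.76 FPKM in si_ITGB4 and 4.26, 3.37 and 4.06 FPKM in si_NC cells. In all 4 the groups overlap, and the limma adjusted p was 0.998 for each.

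Of the 237 antisense RNAs, 151 carry a clone name in the table, and 45 of the 237 have another symbol today.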
